A study of Homo sapiens with 15 samples.

Results

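The genes of the 6 shelterin subunits, TERF1, TERF2, TERF2IP, TINF2, POT1 and ACD, were followed in RNA-seq counts of MRC-5 cells, a line of human lung fibroblasts that ages in culture. They were picked by their known role at telomeres and matched to the Ensembl identifiers of the table through GENCODE 44. They make up 6 of the 57272 genes in the table, and 6 of 6 passed the filter on low counts that left 15799 genes.

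The series holds 15 libraries, 3 in each of 5 conditions. Young cells carried either an empty lentivirus (pWPIR-GFP) or one expressing TRF2 (pWPIR-GFP-TRF2), received a control siRNA and were collected at population doubling (PD) 30. The remaining young condition, siLMNB1, received an siRNA against LMNB1, the gene of lamin B1, in place of the control siRNA. The column names of the count table give it the empty virus, and it was compared with the young cells with that vector and the control siRNA. Senescent cells were infected with the same empty or TRF2 virus before senescence, received the control siRNA by the column names, and were not treated with siLMNB1. All conditions therefore share a lentivirus with GFP, and all come from 1 cell line. The study's methods describe an siRNA transfection for young cells only, so for senescent cells it rests on the column names. The TRF2 virus drives an added copy of TERF2, so the TERF2 count in those cells pools transgene and endogenous reads, which cannot be told apart here. Senescent cells with TRF2 stopped dividing at a later PD than those with the empty virus, by the study's methods, so PD and TRF2 cannot be told apart between them. By the same methods, TRF2 was expressed for days in young cells but over many doublings in those that became senescent. The length of TRF2 expression and the state thus cannot be told apart, which also holds for the interaction of senescence and TRF2. The labels mark the senescent libraries, but not the young ones, as a reanalysis, and the study names a further deposit beside this one. Whether the senescent libraries come from it is not stated in the sources used here. Senescence and any difference of origin cannot be told apart either.

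Shelterin coats the repeats at chromosome ends and keeps them from being read as broken DNA. At its hub is TIN2, encoded by TINF2, which holds both TRF1 (gene TERF1) and TRF2 (gene TERF2) and reaches POT1 through TPP1, the product of ACD. POT1 contacts the single-stranded end of the telomere, whereas TRF1 and TRF2 recognise its double-stranded repeats. RAP1, encoded by TERF2IP, is brought to telomeres by TRF2. In fibroblasts, which lack telomerase activity, telomeres shorten with each division until the cells enter replicative senescence.

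Each library held 26725885 to 43116046 counts in all. The siRNA target LMNB1 was at 58.6 to 61.0 CPM (counts scaled by TMM to a common library size) in young cells with the empty vector and at 2.36 to 2.91 CPM with siLMNB1. It was at 4.60 to 5.65 CPM in senescent cells with the empty vector. The 8 fibroblast markers summed to at least 20033 CPM in every library, while the 5 epithelial markers summed to at most 14.9 CPM, the 4 endothelial to at most 4.15 CPM and the 5 immune to at most 3.50 CPM. The 8 markers of dividing cells summed to 595 to 638 CPM in young cells with the empty vector, 303 to 312 CPM with siLMNB1 and 88.3 to 95.1 CPM in senescent cells with the empty vector. Libraries of the senescent condition with the empty vector differed most among themselves, with a chi-square per degree of freedom of 99.3 and 131 between replicate 3 and the others. For young cells with TRF2 these values were 19.8 and 26.4 between replicate 2 and the others. The labels do not say whether replicates are separate cultures, so p-values measure only the spread between these libraries.

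The bases before the starts of POT1 and TERF2IP are shown because these are the members whose changes with senescence kept their call under every setting tried. Both begin within 1000 bases of the start of a gene on the other strand, as do ACD and TINF2. The annotated starts of POT1 and the antisense RNA POT1-AS1 lie 110 bases apart, and those of TERF2IP and KARS1, which encodes lysyl-tRNA synthetase, 870 bases apart. The bases just before the GENCODE start of each are read 5′ to 3′ on the strand of the gene from the RefSeq promoter table (GRCh38.p14). They show the GC box GGGCGG, the core of a site bound by Sp1-type factors, in capitals. The RefSeq start of POT1, at base 124929825, lies downstream of its GENCODE start.
POT1 (chr7:124929984-124930075, minus strand): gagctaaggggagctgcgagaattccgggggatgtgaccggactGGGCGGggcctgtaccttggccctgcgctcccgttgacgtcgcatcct
TERF2IP (chr16:75647666-75647772, plus strand): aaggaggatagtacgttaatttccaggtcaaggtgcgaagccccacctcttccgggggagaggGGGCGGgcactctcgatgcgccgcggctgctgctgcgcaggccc

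The RefSeq table held 4 of the 6 members. In the 250 bases before the RefSeq start, GGGCGG or its reverse complement CCGCCC occurred 2 times for POT1 and 2 times for ACD. It occurred 1 time for TINF2 and 1 time for TERF2IP, and 42.3% of all 27305 promoters held it. CCAAT or ATTGG, present in 33.0% of promoters, occurred 1 time for TINF2 and 0 times for the other 3. TATAAA, searched on both strands and present in 11.1% of promoters, occurred in 0 of the 4. The same held for CACGTG, which is its own reverse complement (6.49% of promoters). The telomere repeat TTAGGG, held on either strand by 7.85% of promoters, was also found in 0 of the 4. These are matches of letters and say nothing about binding.

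On the GRCh38 assembly, TERF1 lies at chr8:73008856-73048123 on the plus strand and POT1 at chr7:124822386-124929983 on the minus strand.
TINF2 lies at chr14:24238286-24242663 on the minus strand. ACD (chr16:67657512-67660810, minus strand), TERF2 (chr16:69355567-69408571, minus strand) and TERF2IP (chr16:75647773-75761872, plus strand) share chromosome 16. Exons of other genes cover 0% of the TERF1 exons, 1.27% of those of POT1, 1.74% of TERF2, 1.80% of ACD and 3.98% of TERF2IP. For TINF2 the share was 27.9%, on the opposite strand, from GMPR2 and a long non-coding RNA (ENSG00000289979). Whether counting used strand is not given in the sources used here. Wholly under exons of an opposite-strand gene at a mean of 10 CPM or more in young cells lie 328 genes. Of these, 297 had no count in any young library and 313 no count in any senescent library. These sets pool all young and all senescent conditions and differ in their number of libraries.

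Messenger RNA levels of the subunits were compared per kilobase of exon in young cells with the empty vector. TERF2IP stood highest at 18.5 ± 0.738 CPM per kb (SD, n = 3), followed by TINF2 at 8.14 ± 0.182. Next came TERF2 at 4.22 ± 0.321, ACD at 3.71 ± 0.457, TERF1 at 2.00 ± 0.112 and POT1 at 1.79 ± 0.105 CPM per kb. POT1 was the lowest of the 6 in all 5 conditions. TERF1 has annotated exons of 15706 bases in all but a canonical transcript of 3329 bases, and per kilobase of canonical transcript it ranked 3 of 6, at 9.43 ± 0.526 CPM per kb. TERF2IP and POT1 kept the highest and lowest rank with either length in young cells with the empty vector.

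**Figure D1:**
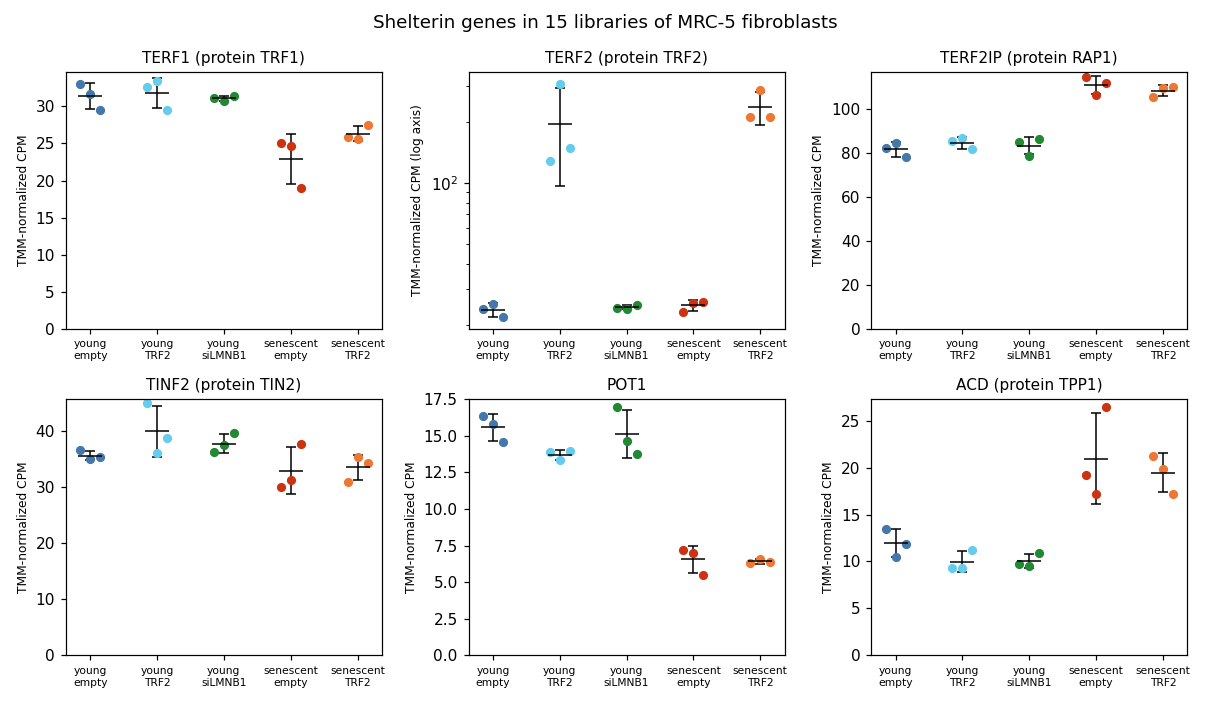
TMM-normalized CPM (vertical axis, on a log scale for TERF2 and from 0 for the rest) of the 6 shelterin genes in the 5 conditions. Points are the 3 libraries of a condition and bars the mean ± SD. POT1 lies at 13.3 CPM or more in the young libraries and at 7.21 CPM or less in the senescent ones, and TERF2 is above 100 CPM only where TRF2 was expressed.

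To see how the messenger RNAs of the complex differ between young and senescent cells, the conditions with the empty vector were compared. Protein was not measured in these data. POT1 was lower and TERF2IP higher in senescent cells, with or without a correction for GC content. TERF1 was lower and ACD higher without that correction, but both changed sign with it, as given below. TERF2 and TINF2 did not pass the test. This makes 4 of 6 members called by edgeR's quasi-likelihood test at an adjusted p below 0.05, against 64.7% of all genes tested, so the share of members is near that of the whole transcriptome. In each direction 2 members were called, against 32.7% of genes higher and 31.9% lower. The median log2 fold change of the 6 was -0.02, beside 0.02 for all genes tested. In bulk RNA, fewer cells that express a gene and less RNA per cell cannot be told apart.

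POT1, the subunit on the single-stranded overhang, was at 16.4, 15.8 and 14.6 CPM in the young libraries. It was at 7.21, 7.0002 and 5.51 CPM in the senescent libraries. The groups lie well apart, as they did for 64.7% of all genes, and the lowest value is that of senescent replicate 3. POT1 fell by 1.25 on the log2 scale (SE 0.12), a level 2.38-fold lower (adjusted p = 1.43e-07, edgeR's quasi-likelihood test, Benjamini-Hochberg adjusted over all genes tested). It was the 1 member past the study's fold threshold of 1 on the log2 scale, which 28.5% of all genes passed. Of all genes tested, 9.01% had a lower log2 fold change.

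TERF1, one of the duplex binders, was at 33.0, 31.7 and 29.5 CPM in young and at 25.1, 24.7 and 19.1 CPM in senescent libraries. Here too the groups did not overlap, and senescent replicate 3 was the lowest. TERF1 fell by 0.45 on the log2 scale (SE 0.10, adjusted p = 0.00101 by edgeR's quasi-likelihood test).

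TERF2IP, whose product RAP1 is held at telomeres by TRF2, was at 82.4, 84.7 and 78.2 CPM in young and at 115, 107 and 112 CPM in senescent libraries. All 3 senescent libraries were above all 3 young ones, and the spread within each condition was small beside the gap. The log2 fold change was 0.44 (SE 0.07), or 1.36-fold (adjusted p = 5.75e-05 by edgeR's quasi-likelihood test). ACD, which encodes the partner of POT1 that also recruits telomerase, was at 13.4, 10.5 and 11.9 CPM in young and at 19.2, 17.2 and 26.5 CPM in senescent libraries. The groups were apart, with senescent replicate 3 well above the other senescent libraries. The log2 fold change was 0.82 (SE 0.15), or 1.76-fold (adjusted p = 0.000204 by edgeR's quasi-likelihood test).

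TERF2 was at 23.95, 25.5 and 21.9 CPM in young and at 23.3, 25.6 and 26.0 CPM in senescent libraries with the empty vector. The libraries overlapped, and the log2 fold change of 0.07 had a 95% interval from -0.43 to 0.57 (adjusted p = 0.808 by edgeR's quasi-likelihood test). Changes of TERF2 messenger RNA within that interval are thus not excluded by this fit. The study describes, with earlier work cited, a lower TRF2 protein level at senescence, which these RNA counts do not measure. The joint model takes in the wide spread of the libraries with TRF2, and on only the libraries compared the SE was 0.12 in place of 0.24. TINF2, which ties the duplex binders together, was at 36.5, 35.1 and 35.3 CPM in young and at 29.9, 31.2 and 37.7 CPM in senescent libraries. Senescent replicate 3 lay above all young libraries and the other senescent ones below them. Its log2 fold change was -0.11 (SE 0.10, adjusted p = 0.357 by edgeR's quasi-likelihood test). Without senescent replicate 3 it was -0.24, and called lower (adjusted p = 0.0292).

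The balance between the messenger RNAs of subunits that work together differed too, in values not corrected for GC content. The ratio of POT1 to ACD in CPM was 1.32 ± 0.164 (SD, n = 3) in young and 0.330 ± 0.107 in senescent cells with the empty vector. The ratio of TINF2 to ACD was 3.01 ± 0.314 in young and 1.60 ± 0.198 in senescent cells. For TERF2 to TERF1 the values were 0.758 ± 0.0419 and 1.11 ± 0.226. In each of these ratios the highest library of one condition lay below the lowest of the other. Libraries of 64.7% of all genes tested were apart in this comparison too, and no such share was computed for ratios. With the correction for GC content given below, TERF1, TERF2 and ACD changed sign. The ratios were not computed with it. These ratios rest on the levels above and were not tested on their own.

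The 6 genes differ widely in GC content, and the libraries of senescent cells followed GC content across all genes. Counts rose with GC by 0.45 to 0.80 on the log2 scale per 10 percentage points in the 6 senescent libraries, relative to the young ones with the empty vector, and by -0.01 to 0.14 in the 9 young libraries. The steepest trend was in senescent replicate 3 with the empty vector. The canonical transcripts of POT1 and TERF1 had a GC content of 36.6% and 38.2%, those of TERF2IP, TERF2 and TINF2 of 50.2%, 51.1% and 55.0%, and that of ACD 62.1%. Whether the trend arose in the cells or in the libraries was not tested, and in this design senescence cannot be told apart from the reanalysis label.

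For senescent against young cells with the empty vector, each member was also set among the genes within 2 percentage points of its GC content. POT1 lay below the 25th percentile of its set, whereas the other 5 members lay between the 25th and 75th percentiles of theirs. The 1490 genes around POT1 had a median log2 fold change of -0.55, and 15.2% of them were lower than POT1. Of the 1977 genes around TERF2IP, with a median of 0.08, 69.2% were lower. The medians were -0.51 around TERF1 and 0.86 around ACD, with 54.6% and 46.5% of those genes lower than the member. Around TINF2 the median was 0.33, and 25.5% of 1856 genes were lower.

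When each library was given offsets for the GC content and length of genes, 3 of the 6 members were called between senescent and young empty-vector cells. POT1 fell by 0.65 on the log2 scale (SE 0.10, adjusted p = 4.87e-05 by edgeR's quasi-likelihood test) and TERF2IP kept a log2 fold change of 0.39 (SE 0.06, adjusted p = 5.23e-05). TINF2 became a call, with a log2 fold change of -0.44 (SE 0.08, adjusted p = 0.000157). TERF1, at 0.15 (adjusted p = 0.200), and ACD, at -0.01 (adjusted p = 0.918), changed sign and lost their call. The calls shared by both fits are thus the lower POT1 and the higher TERF2IP.

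**Figure D2:**
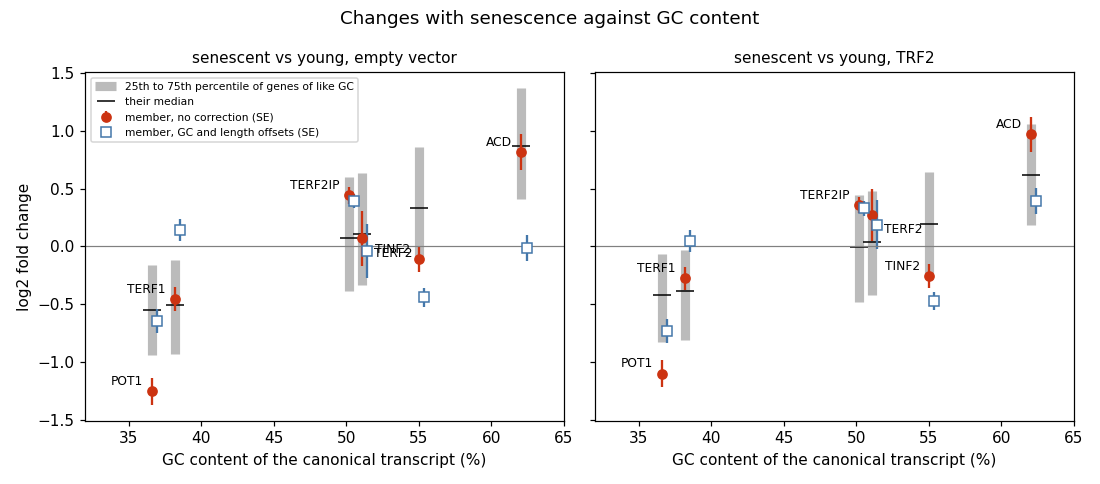
Log2 fold change between senescent and young cells (vertical axis) against the GC content of the canonical transcript in percent (horizontal axis), with the empty vector and with TRF2. Red points show the 6 members without correction and blue squares with the GC and length offsets, both ± SE, and grey bars span the 25th to 75th percentile of genes of like GC content, with the median as a black line. POT1 and TERF2IP stay on their side of 0 with the offsets, at -0.65 and 0.39 with the empty vector, whereas TERF1 and ACD move from -0.45 and 0.82 to 0.15 and -0.01.

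The same question was asked of cells that expressed TRF2. Here 5 of 6 members were called, against 58.3% of all genes, 2 higher (28.2% of genes) and 3 lower (30.1% of genes). POT1 was at 13.9, 13.3 and 13.9 CPM in young and at 6.28, 6.59 and 6.38 CPM in senescent libraries. The libraries of each condition were close together and the conditions far apart. POT1 fell by 1.10 on the log2 scale (SE 0.12, adjusted p = 6.40e-07 by edgeR's quasi-likelihood test), and by 0.73 with the offsets (adjusted p = 1.18e-05).

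TERF2IP was at 85.4, 87.0 and 81.9 CPM in young and at 106, 110 and 110 CPM in senescent libraries with TRF2. Its log2 fold change was 0.36 (SE 0.07, adjusted p = 0.00046 by edgeR's quasi-likelihood test) and 0.33 with the offsets (adjusted p = 0.000274). The groups did not overlap. ACD was at 9.34, 9.26 and 11.2 CPM in young and at 21.3, 19.9 and 17.2 CPM in senescent libraries with TRF2. Its log2 fold change of 0.97 (SE 0.15, adjusted p = 4.49e-05 by edgeR's quasi-likelihood test) became 0.39 with the offsets and kept its call (adjusted p = 0.00589), unlike with the empty vector.

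TERF1 and TINF2 were lower by smaller steps. TERF1 was at 32.6, 33.4 and 29.5 CPM in young and at 25.9, 25.6 and 27.4 CPM in senescent libraries with TRF2. It fell by 0.28 on the log2 scale (adjusted p = 0.0276 by edgeR's quasi-likelihood test), and had a value of 0.04 with the offsets (adjusted p = 0.706). TINF2, at 45.0, 36.1 and 38.7 CPM in young and 31.0, 35.3 and 34.2 CPM in senescent libraries, fell by 0.25 (adjusted p = 0.0462 by edgeR's quasi-likelihood test), and by 0.47 with the offsets (adjusted p = 7.21e-05). The groups were apart for both genes, as they were for 71.4% of all genes. Both calls were lost without young replicate 1 (adjusted p = 0.0672 for TERF1 and 0.212 for TINF2) and without senescent replicate 1 (adjusted p = 0.0767 and 0.173), which leaves 3 members called. The TERF1 call was also lost without young replicate 2 (adjusted p = 0.0818) or senescent replicate 2 (adjusted p = 0.0751), and the TINF2 call without young replicate 3 (adjusted p = 0.0626) or senescent replicate 3 (adjusted p = 0.0756).

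The TERF2 count checks the label of the cells given the TRF2 virus. In young cells TERF2 was at 128, 307 and 149 CPM with TRF2, against 21.9 to 25.5 CPM with the empty vector. Every library with TRF2 lay far above every library without, and young replicate 2 was above every senescent library. The log2 fold change was 3.03 (SE 0.25), or 8.18-fold (adjusted p = 2.32e-05 by edgeR's quasi-likelihood test). In senescent cells TERF2 was at 210, 285 and 210 CPM with TRF2, against 23.3 to 26.0 CPM with the empty vector. The log2 fold change was 3.23 (SE 0.25), or 9.41-fold (adjusted p = 1.01e-05 by edgeR's quasi-likelihood test). Per kilobase of exon, TERF2 ranked 3 of 6 in young and 4 of 6 in senescent cells with the empty vector, and 1 of 6 with TRF2, above TERF2IP.

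Between senescent and young cells with TRF2, the TERF2 level differed by 0.27 on the log2 scale (95% interval -0.21 to 0.75, adjusted p = 0.316 by edgeR's quasi-likelihood test). Without young replicate 2, which holds the count of 307 CPM, the difference was 0.76 (adjusted p = 0.000192). The comparison of the TERF2 level between the states therefore turns on that library.

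The other 5 subunits were not called when TRF2 was expressed, in young or in senescent cells. TERF2 was the 1 member of 6 called in young cells, where 0.177% of all genes were called and 0.152% were called higher. It was the 1 of 6 in senescent cells too, where 11.3% were called and 4.87% called higher. These shares over all genes are unstable. With one library left out, the genes called went from 28 to between 1 and 18 in young cells, and from 1782 to between 722 (without senescent replicate 1 with TRF2) and 4411 (without senescent replicate 1 with the empty vector) in senescent cells. On only the libraries compared they numbered 474 in young and 2 in senescent cells. TERF2 was the 1 member called in each of these fits. In young cells the log2 fold changes of the other 5 ran from -0.26 for ACD to 0.16 for TINF2, and none had an unadjusted p below 0.05 (the lowest was 0.109). TERF2IP, which encodes the direct partner of TRF2, had a log2 fold change of 0.05 in young cells (95% interval -0.10 to 0.20) and -0.03 in senescent cells (-0.18 to 0.12). Its level thus stayed within narrow bounds while TERF2 rose, and the ratio of TERF2IP to TERF2 in CPM went from 3.45 ± 0.127 to 0.4999 ± 0.196 in young cells. In senescent cells that ratio went from 4.46 ± 0.407 to 0.471 ± 0.0753.

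POT1 in young cells and TERF1 in senescent cells had libraries that did not overlap between TRF2 and the empty vector, as did 23.6% and 26.8% of all genes in these comparisons. POT1 was at 13.3 to 13.9 CPM with TRF2 and at 14.6 to 16.4 CPM without, a log2 fold change of -0.18 (adjusted p = 0.642 by edgeR's quasi-likelihood test). TERF1 was at 25.6 to 27.4 CPM with TRF2 and at 19.1 to 25.1 CPM without it, in the senescent state, with a log2 fold change of 0.20 (adjusted p = 0.212). With the offsets the TERF1 value was -0.10 (adjusted p = 0.540).

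The senescence changes with TRF2 and with the empty vector were compared by an interaction term. It was called for 0 of 6 members and for 1.13% of all genes, and no member had an unadjusted p below 0.05. DESeq2 called 0 members as well. Over all genes the 179 calls ran from 6 (without young replicate 2 with the empty vector) to 2089 (without senescent replicate 1 with the empty vector) with one library left out, again with 0 members. For POT1 the difference between the senescence changes was 0.15 (95% interval -0.20 to 0.50) and for ACD 0.15 (-0.30 to 0.61). The interval for TERF2IP, -0.30 to 0.13, was the narrowest of the 6 members.

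**Figure D3:**
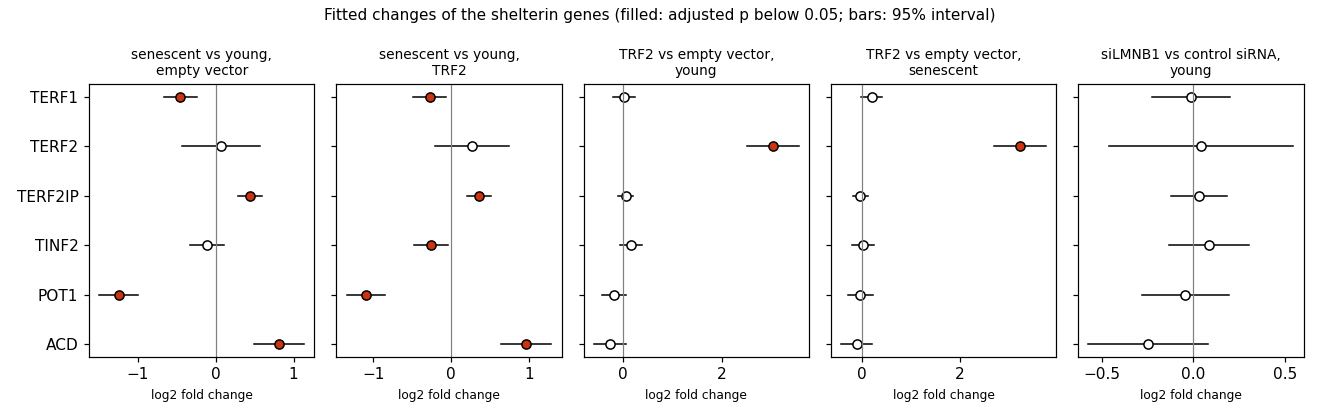
Log2 fold changes (horizontal axis) of the 6 shelterin genes (vertical axis) in 5 comparisons, each panel with its own horizontal scale. Points are fitted values and bars their 95% interval, and filled points have an adjusted p below 0.05 by edgeR's quasi-likelihood test. Filled points number 4, 5, 1, 1 and 0 of 6 from left to right, and with TRF2 expression TERF2 at 3.03 and 3.23 is the 1 filled point in each panel.

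Lowering lamin B1 in young cells left 0 of 6 shelterin genes called, where 32.5% of all genes were. No member had an unadjusted p below 0.05, and DESeq2 also called 0. TERF1 was at 31.1, 30.7 and 31.4 CPM with siLMNB1, within the range of the control libraries (29.5 to 33.0 CPM), with a log2 fold change of -0.01 (95% interval -0.23 to 0.20). POT1 was at 17.0, 14.7 and 13.8 CPM, a log2 fold change of -0.04 (-0.28 to 0.19), so that a fall of the size seen with senescence lies outside the interval. TERF2IP was at 84.9, 78.9 and 86.5 CPM, a log2 fold change of 0.03 (-0.12 to 0.18).

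In the siLMNB1 cells the markers of dividing cells were lower as well, with 7 of 8 called. TERF2, at 24.1 to 25.1 CPM, and TINF2, at 36.2 to 39.6 CPM, had log2 fold changes of 0.04 and 0.08. ACD was at 9.73, 9.52 and 10.9 CPM with siLMNB1, against 10.5 to 13.4 CPM in the control libraries, which overlap. Its log2 fold change of -0.25 (SE 0.15, adjusted p = 0.243 by edgeR's quasi-likelihood test) became -0.37 with the offsets, and was then called (adjusted p = 0.0156).

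Ordered by mean level, the conditions fell into young and senescent sets for the 5 genes other than TERF2. Of 24 pairs of neighbours in these orders, 5 differed at an adjusted p below 0.05 by edgeR's quasi-likelihood test. For POT1 the step lay between young cells with TRF2 (13.7 CPM) and senescent cells with the empty vector (6.57 CPM). For TERF2IP it lay between senescent and young cells with TRF2 (109 and 84.8 CPM), and for ACD between senescent cells with TRF2 and young cells with the empty vector (19.5 and 11.9 CPM). For TERF1 it lay between siLMNB1 and senescent cells with TRF2 (31.1 and 26.3 CPM, adjusted p = 0.0492). With the offsets for GC content, the steps of TERF1 (adjusted p = 0.958) and ACD (adjusted p = 0.449) were lost. TINF2 then gained one between young cells with the empty vector and senescent cells with TRF2 (0.31 on the log2 scale, adjusted p = 0.00275). ACD gained one within the young conditions, where it was higher with the control siRNA and empty vector than with siLMNB1 (0.365, adjusted p = 0.0156). TERF2 had its step between the conditions with and without the TRF2 virus. Without the offsets no neighbours passed the test for TINF2, which ran from 39.9 CPM in young cells with TRF2 to 32.9 CPM in senescent cells with the empty vector.

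KARS1, which starts close to TERF2IP on the opposite strand, moved the other way. It was at 192 ± 3.28 CPM (SD, n = 3) in young and 113 ± 9.52 CPM in senescent cells with the empty vector. KARS1 fell by 0.76 on the log2 scale (SE 0.08, adjusted p = 4.06e-07 by edgeR's quasi-likelihood test), and by 0.66 with the offsets (adjusted p = 3.25e-07). With siLMNB1 it fell by 0.51 (adjusted p = 0.000131), while TERF2IP had the log2 fold change of 0.03 given above. The other partners with a start near a member were at low counts, with POT1-AS1 at 26 counts or fewer in every library and PARD6A, which faces ACD, at 0.923 CPM or less.

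For each member the protein-coding genes with the most similar profile over the 15 libraries were sought among 13185 genes by Pearson correlation of log2 CPM. These correlations are descriptions: the libraries share the split into young and senescent and its trend with GC content. POT1 was most like SERBP1 (r = 0.990) and STT3A (0.989), and 1570 genes had r above 0.9 with it. TERF2IP was most like KNDC1 (0.985) and RAB11FIP3 (0.982), ACD like FNDC4 (0.976) and PPP2R1A (0.970), and TERF1 like ZC3HAV1 (0.980) and FBXO11 (0.978). For TERF2 there was 1 gene above 0.9, PDZRN3 (0.913), followed by DEPP1 (0.849). TINF2 had 0 genes above 0.9, the nearest being TRIM47 (0.845) and ATP5MC2 (0.839).

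The rest of the telomere machinery was read from 4 lists of genes. The telomerase list holds the enzyme, the proteins bound to its RNA and its assembly factors, and 12 of 14 genes passed the filter. TERT, its catalytic subunit, had 1 count or fewer in every library, and TERC, its RNA, 5 or fewer. Of the TERC exons, 81.0% lie under those of other genes, so its low counts cannot be read as absence of this RNA. In senescent against young cells with the empty vector 0 were higher and 7 lower (9 with the offsets), with a median log2 fold change of -0.37. Of all genes tested, 32.7% were higher and 31.9% lower. DKC1, which encodes dyskerin, was at 87.5 ± 1.95 CPM (SD, n = 3) in young and 42.3 ± 3.78 in senescent cells and fell by 1.05 on the log2 scale (adjusted p = 9.61e-09 by edgeR's quasi-likelihood test). GAR1, another protein of the same particles, fell by 0.97 (adjusted p = 3.49e-08), and NOLC1, a nucleolar chaperone of them, fell by 0.87 (adjusted p = 3.77e-06).

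CST is the complex that follows shelterin and brings DNA polymerase α-primase to fill in the C-rich strand. Of 6 tested genes of CST and primase, 1 was higher and 4 were lower, against 32.7% and 31.9% of all genes tested. Their median log2 fold change was -1.82. CTC1, the large subunit of CST, was the higher one, at 8.02 ± 0.740 CPM in young and 13.7 ± 2.51 in senescent cells with the empty vector (log2 fold change 0.78, adjusted p = 0.000131 by edgeR's quasi-likelihood test). POLA2, PRIM1 and POLA1, subunits of polymerase α-primase, were all called lower, with log2 fold changes of -3.00, -2.596 and -2.11 (21.3%, 19.1% and 0% of their exons lie under those of other genes). They fell beside the markers of dividing cells, 8 of 8 of which were lower in senescent cells. What part cell division has in these values was not tested.

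Of 19 tested partners of shelterin, such as nucleases, helicases and modifiers, 2 were higher and 15 lower. Their median was -0.68, and 32.7% of all genes tested were higher and 31.9% lower. ZBTB48, which encodes the telomere repeat binder TZAP, was at 4.84 ± 0.221 CPM in young and 11.7 ± 3.76 in senescent cells (log2 fold change 1.28, adjusted p = 1.01e-05 by edgeR's quasi-likelihood test). SLX4, a nuclease scaffold bound by TRF2, had a log2 fold change of 0.49 (adjusted p = 0.0037). DCLRE1B, which encodes Apollo, the nuclease that TRF2 recruits, was at 13.5 ± 0.717 and 5.16 ± 0.412 CPM and fell by 1.38 (adjusted p = 3.77e-07). BLM, a helicase, fell by 3.43 (adjusted p = 7.03e-08). RAD50, a part of the MRE11 complex, fell by 3.51, but 76.9% of its exons lie under those of other genes.

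Some overlapped genes differed widely between young and senescent libraries, a split that is also that of the reanalysis label. SDHA and MAD1L1, chosen after their values were seen, lie under readthrough genes and were at 125 and 29.3 CPM in young and at 2.19 and 0.0957 CPM in senescent cells with the empty vector. ATRIP, with 26.7% of its exons under other genes, had 0 counts in the young libraries with the empty vector and 9.76 ± 2.07 CPM in the senescent ones, at least 97.3-fold higher against a floor of 3 counts per library. Whether young and senescent libraries were counted with the same annotation was not tested. Among the shelterin genes themselves the overlap was at most 3.98%, apart from TINF2.

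The list of damage signalling holds the ATM and ATR kinases and the repair factors that act where shelterin fails. Of its 26 genes, 2 were higher and 20 lower, against 32.7% and 31.9% of all genes tested. The median was -0.69, also with ATRIP set at its bound. Besides ATRIP the higher gene was MAD2L2, a shieldin subunit (log2 fold change 0.46, adjusted p = 0.0126 by edgeR's quasi-likelihood test). CHEK1, the kinase below ATR, was at 39.9 ± 1.24 CPM in young and 11.03 ± 2.70 in senescent cells and fell by 1.86 (adjusted p = 1.39e-08). BRCA1 fell by 1.76 (adjusted p = 4.82e-08). Of the list's 16 genes with under 5% of their exons under other genes, 0 were higher and 13 lower. Of the 13 such shelterin partners 2 were higher and 10 lower. No share was computed over all genes with so little overlap.

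With the offsets, 12 shelterin partners and 16 damage signalling genes were lower, and the number of lower CST and primase genes was 4 again. In that fit 4818 of all 15799 genes tested were lower. Between senescent and young cells with TRF2, the lower genes numbered 9 of 12 for telomerase, 4 of 6 for CST and primase, 13 of 19 for the partners and 17 of 26 for damage signalling. The higher ones numbered 0, 1, 2 and 2. In that comparison 30.1% of all genes tested were lower and 28.2% higher. The young controls are not shared between these comparisons, but the split by the reanalysis label is.

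With TRF2 expression in young cells, 0 of 12, 0 of 6, 0 of 19 and 0 of 26 genes of these 4 lists were called by edgeR's quasi-likelihood test, where 0.177% of all genes were, and DESeq2 called 0 in each as well. At an unadjusted p below 0.05 there were 1, 1, 2 and 1. On only the libraries compared, where 474 of 14357 genes were called, 2 telomerase genes and 1 CST and primase gene were lower. In senescent cells, where 11.3% of all genes were called, 3, 2 and 1 genes of the first 3 lists were lower, as were 3 genes of the damage signalling list. On only the libraries compared, where 2 genes in all were called, 0 genes of the lists were.

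With siLMNB1, 2 of 12 telomerase genes, 3 of 6 CST and primase genes, 6 of 19 partners and 10 of 26 damage signalling genes were called, shares that lie on both sides of the 32.5% of all genes. TNKS, which encodes tankyrase, the enzyme that releases TRF1 from telomeres, was at 67.1 ± 1.89 CPM in control and 35.5 ± 2.32 CPM in siLMNB1 cells and fell by 0.92 (adjusted p = 0.000774 by edgeR's quasi-likelihood test). FBXO4, which encodes a ubiquitin ligase subunit that targets TRF1, was at 4.58 ± 0.155 and 9.27 ± 1.21 CPM (log2 fold change 1.02, adjusted p = 0.000209). The messenger RNA of TERF1 itself had the log2 fold change of -0.01 given above, and TRF1 protein was not measured in these data. By direction, 1 partner was higher and 5 lower, 1 telomerase gene was higher and 1 lower, 3 CST and primase genes were lower, and 2 damage signalling genes were higher and 8 lower.

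**Figure D4:**
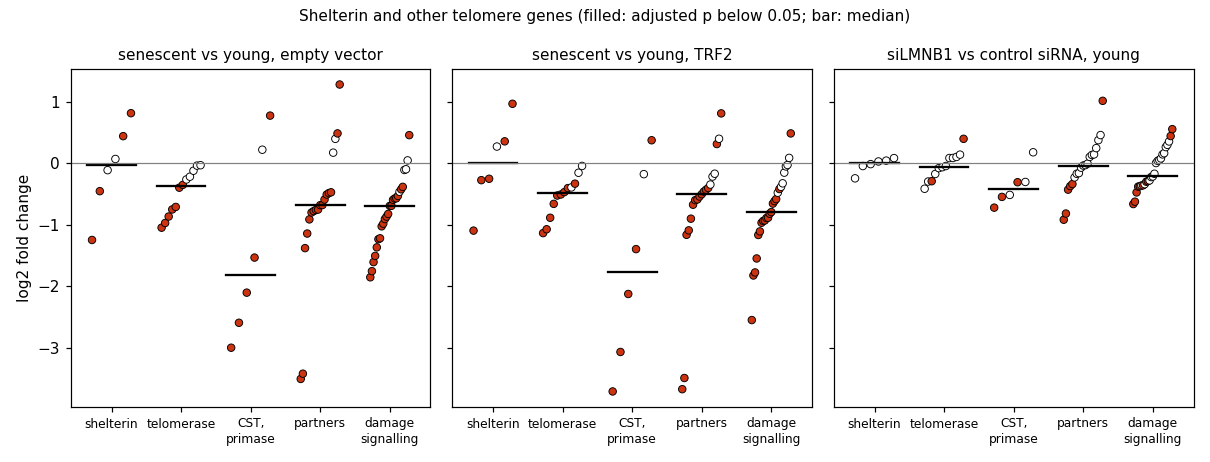
Log2 fold changes (vertical axis) of the shelterin genes and the tested genes of 4 lists (horizontal axis) in 3 comparisons. Each point is a gene, filled where the adjusted p was below 0.05 by edgeR's quasi-likelihood test, and the bar is the median over the genes drawn, with ATRIP left out. With the empty vector the shelterin genes centre on -0.02 while the CST and primase genes centre on -1.82.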

How the data were processed

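RNA of 15 MRC-5 libraries was sequenced. After trimming (Trimmomatic) and mapping to GRCh38 (STAR), the authors deposited raw counts per gene that were not normalized. The annotation release and strand setting for counting are not given in the sources used here. Columns were assigned to samples by their labels, and 0 columns were left unused. Genes were named with GENCODE 44, in which 279 are absent.

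Counts were scaled by TMM and fitted with edgeR 4.0.16 (limma 3.58.1, R 4.3.3) after filterByExpr, with 1 mean per condition in a joint model. Log2 fold changes were tested by edgeR's quasi-likelihood test, adjusted after Benjamini-Hochberg over 15799 genes, at a threshold of 0.05. Offsets for GC content and length came from loess curves (span 0.3, prior count 1) with the young empty-vector libraries as the reference. DESeq2 1.42.0 with a Wald test, other scalings, no filter, fewer libraries, a replicate block and each library left out served as alternatives. Offsets for GC alone, offsets or a block with only the libraries compared, and offsets without senescent replicate 3 were chosen after seeing the data.

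The members and the lists were chosen with earlier results of these data known. All members are named, with the up to 3 called genes of each list that had the largest fold change (shown where they serve the text) and small counts in full. The model was tested on simulated libraries drawn from the young empty-vector means. All shared the same spread, and any GC slope was the same in all senescent libraries. The real senescent empty-vector libraries had unlike slopes of 0.45, 0.50 and 0.80 per 10 percentage points, so the recovery need not hold for them. The fit recovered 76.8% of 190 genes given a log2 change of 1 among 14978, and 25.6% of 195 given a change of 0.5 among 14987. With a GC trend added, 6246 of 15011 genes were called falsely without offsets and 8 with them. The fit with trend and offsets recovered 83% of 194 genes given a change of 1, but 16.7% of 192 given 0.5. Depth of 26725885 to 43116046 counts and 3 libraries per condition limit precision. Python 3.11.15 and matplotlib 3.10.9 drew the figures. The values of 1 gene of the lists are not reported here.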

Additional observations from a re-analysis of the deposited data

How the results depend on the processing

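Over the alternatives tried, POT1 was lower and TERF2IP higher in senescent cells with either vector, and TERF2 was higher with TRF2, always past the threshold. POT1 ranged from -1.33 to -0.64 and TERF2IP from 0.36 to 0.48 with the empty vector. The number of members called between senescent and young cells with TRF2 fell from 5 to 3 without the filter on low counts, where TERF1 (adjusted p = 0.0926) and TINF2 (0.121) were lost, and ranged from 3 to 5 with one library left out. Under the other scalings, DESeq2 and the offsets it was 4. The number called with siLMNB1 rose from 0 to 1, ACD, with offsets for GC content and length, with these and the replicate block, with GC offsets alone and with these offsets and only the libraries compared. Per kilobase of canonical transcript, levels in young cells with the empty vector were 9.43 CPM for TERF1, 7.93 for TERF2, 38.4 for TERF2IP, 19.8 for TINF2, 3.97 for POT1 and 7.90 for ACD, larger by construction since these lengths are shorter.

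Whether replicate numbers pair the samples was not settled. The correlation of deviations ran from -0.09 to 0.20 (median 0.003) between libraries of the same number. Between libraries of other numbers it ran from -0.13 to 0.08 (median -0.003). Of 15 libraries, 8 correlated best with one of their own number, and the number to be met by chance was not computed. With the replicate block, TINF2 between senescent and young cells with TRF2 had a log2 fold change of -0.25 (adjusted p = 0.0521) and lost its call, and no other member changed its call. TERF2, not called in that comparison without the block either, had 0.32 (0.156). With the block and only the libraries compared, TERF2 had 0.38 (0.00733), for 6 calls.

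Directions turned under some settings, none of these values passed the threshold, and the cause was not tested. With upper-quartile scaling the log2 fold changes that turned were TINF2 -0.017 for TRF2 in senescent cells. Under the same setting they were TERF1 0.064 and POT1 0.033 with siLMNB1. With GC and length offsets the log2 fold changes that turned were TERF1 0.15, TERF2 -0.040 and ACD -0.015 between senescent and young empty-vector cells. Under the same setting they were TERF1 0.045 between senescent and young cells with TRF2. They were TERF1 -0.095, TERF2IP 0.00091 and ACD 0.11 for TRF2 in senescent cells. They were TERF1 0.044, TERF2 -0.0077, TERF2IP -0.017 and POT1 0.020 with siLMNB1. They were TERF1 -0.10 and POT1 -0.083 for the interaction. With these offsets and the replicate block the log2 fold changes that turned were TERF1 0.14, TERF2 -0.032 and ACD -0.013 between senescent and young empty-vector cells. Under the same setting they were TERF1 0.043 between senescent and young cells with TRF2. They were TERF1 -0.093, TERF2IP 0.0016 and ACD 0.12 for TRF2 in senescent cells. They were TERF1 0.040, TERF2IP -0.016 and POT1 0.017 with siLMNB1. They were TERF1 -0.098 and POT1 -0.080 for the interaction. With GC offsets alone the log2 fold changes that turned were TERF1 0.074, TERF2 -0.061 and ACD -0.045 between senescent and young empty-vector cells. Under the same setting they were TERF1 0.093 between senescent and young cells with TRF2. They were ACD 0.056 for TRF2 in senescent cells. They were TERF1 0.043, TERF2 -0.016, TERF2IP -0.025 and POT1 0.027 with siLMNB1. They were POT1 -0.041 for the interaction. With both offsets and only the libraries compared the log2 fold changes that turned were TERF1 0.15 and TERF2 -0.027 between senescent and young empty-vector cells. Under the same setting they were TERF1 0.053, TERF2 -0.0012, TERF2IP -0.0053 and POT1 0.019 with siLMNB1. They were TERF1 -0.10 and POT1 -0.084 for the interaction. With both offsets and without senescent replicate 3 the log2 fold changes that turned were TERF1 0.017, TERF2 -0.057 and ACD -0.0039 between senescent and young empty-vector cells. Under the same setting they were ACD 0.10 for TRF2 in senescent cells. With one library left out, values crossing 0 ran from -0.022 to 0.072 for TERF1 for TRF2 in young cells. They ran from -0.036 to 0.14 for TINF2, from -0.14 to 0.045 for POT1 and from -0.23 to 0.099 for ACD for TRF2 in senescent cells. They ran from -0.052 to 0.025 for TERF1, from -0.0091 to 0.10 for TERF2 and from -0.13 to 0.020 for POT1 with siLMNB1. They ran from -0.0074 to 0.69 for TERF2 for the interaction.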
